A study of Homo sapiens with 3 samples.

Results

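CRIM1 is a gene on chromosome 2 from which 18 of the 10562 circular RNAs (circRNAs) listed in the deposited table derive. They were taken as every entry whose host gene is CRIM1, and each was followed by its start and end across 3 human cell lines. J82 and T24 are bladder cancer lines, and SV-HUC-1 is an immortalized line from the urothelium, an epithelium of the urinary tract. Each line is represented by 1 library made from total RNA that was depleted of ribosomal RNA and treated with RNase R, an exonuclease that digests linear RNA. The labels give no drug treatment or time, and none of the lines carries a labelled genetic change. The gene was selected on these same CPM values, because its circRNAs differed from each other between the lines. All levels and ratios of its circRNAs below are therefore descriptions with no test.

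CRIM1 encodes a transmembrane protein with cysteine-rich repeats of the von Willebrand factor C type, through which it binds bone morphogenetic proteins (BMPs) and limits their processing and delivery to the cell surface. A circRNA forms when the spliceosome joins the downstream end of an exon to the upstream end of the same or an earlier exon, a reaction called back-splicing. One gene can give many circles, which differ in the upstream site (here the start, since CRIM1 lies on the plus strand) and in the downstream site (the end). Circles that share a site draw on the same splice site, and their reads do not measure the linear CRIM1 messenger RNA or its protein. The table does not state how reads were assigned to circles whose spans overlap, nor that they are reads across the back-splice junction alone, so each count and share below is that assigned to a circle by the authors.

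The table listed 126041 circRNA reads in J82, 108574 in T24 and 128055 in SV-HUC-1, and no circRNA was listed that stayed under 5 reads in every line. Levels are given as CPM, a read count relative to the library total as scaled by the authors, and 1 read was worth 0.0211 CPM in J82, 0.0234 in T24 and 0.0201 in SV-HUC-1. As a check of the labelled cell types, circRNAs came from 10 of 22 epithelial and urothelial marker genes, with 446 summed reads in J82, 29 in T24 and 1053 in SV-HUC-1. In T24, 7 of these 10 genes were at 0, among them EPCAM, CDH1 and GRHL2, against 1 of 10 in J82 and 0 of 10 in SV-HUC-1. Their part in the CRIM1 values was not tested. The other marker lists gave circRNAs from 3 of 9 mesenchymal genes (64, 20 and 265 summed reads in J82, T24 and SV-HUC-1) and from 1 of 7 blood and endothelial genes, FLI1 (11, 44 and 33 reads).

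All CRIM1 circRNAs lay between positions 36586046 and 36764689 of chromosome 2 (hg19, plus strand, as the table gives positions), a stretch of 178.6 kb. They used 10 starts and 6 ends. CRIM1 ranked 5th of 4231 host genes by number of circRNAs, while the median host gene had 2. Of the 18, 17 had an ID in the circRNA database circBase, and 1 (36615114 to 36706837) had none. J82 and SV-HUC-1 held reads of all 18, and T24 of 15. Of all 10562 listed circRNAs, 9332 had reads in J82, 8808 in T24 and 9392 in SV-HUC-1, so T24 also held the fewest over the whole list. Spans ran from 0.174 kb to 91.7 kb, and the starts and ends formed a nested pattern in which 16 of the 18 circles shared a site with another.

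**Figure D1:**
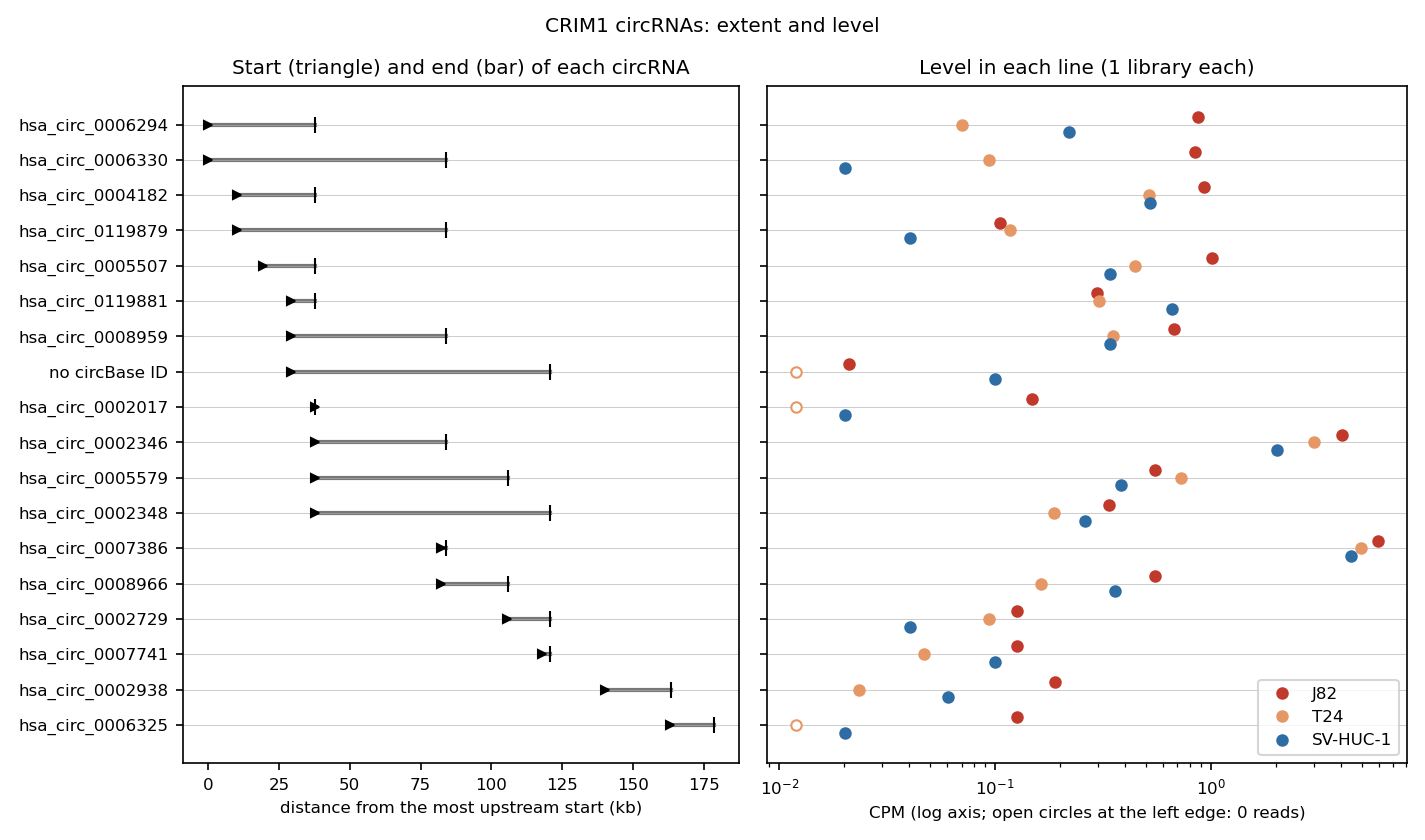
Left, the extent of each CRIM1 circRNA as distance from the most upstream start (kb, triangle at the start and bar at the end). Right, its level in J82, T24 and SV-HUC-1 (CPM, log axis, 1 library per line, open circles for 0 reads). The circRNA hsa_circ_0007386 is the rightmost entry in every line, and the widest gap between lines is that of hsa_circ_0006330, at 0.846 CPM in J82, 0.0936 CPM in T24 and 0.0201 CPM in SV-HUC-1.

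Summed over its circRNAs, CRIM1 had 799 reads in J82, 473 in T24 and 497 in SV-HUC-1, which is 16.9, 11.1 and 9.97 CPM. J82 was thus the highest line, and T24 and SV-HUC-1 lay close together. The ratio of the summed CPM was 1.69 for J82 against SV-HUC-1 (exact 95% counting interval 1.51 to 1.90), 1.11 for T24 against SV-HUC-1 (0.977 to 1.26) and 1.53 for J82 against T24 (1.36 to 1.71). Intervals here and below are Clopper-Pearson intervals, on the reads of 2 libraries for a ratio and of 1 for a share, and are not adjusted for their number. The intervals cover counting error only and take each read as a separate molecule. Reads copied from 1 molecule, which the counts cannot show, would make the intervals too narrow. With 1 library per line no difference has a replicate check.

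A pair of circles carried most of the CRIM1 reads in every line. The more abundant, hsa_circ_0007386 (36668400 to 36669878, a span of 1.48 kb), had 281 reads in J82, 211 in T24 and 222 in SV-HUC-1, or 5.94, 4.94 and 4.46 CPM. Of the 11 circles compared in J82 and SV-HUC-1 it lay among those nearest to equal in CPM, with a ratio of 1.33 (1.11 to 1.60) for J82 against SV-HUC-1 and 1.11 (0.914 to 1.34) for T24 against SV-HUC-1. Its share of the CRIM1 reads was 35.2% in J82 (31.9% to 38.6%), 44.6% in T24 (40.1% to 49.2%) and 44.7% in SV-HUC-1 (40.2% to 49.2%). The J82 interval of this share lay below those of both other lines. The other, hsa_circ_0002346 (36623756 to 36669878, 46.1 kb), had 191 reads in J82, 128 in T24 and 101 in SV-HUC-1, or 4.04, 3.00 and 2.03 CPM. It was highest in J82, with a ratio to SV-HUC-1 of 1.992 (1.56 to 2.56), just inside 2-fold, and its ratio in T24 against SV-HUC-1 was 1.48 (1.13 to 1.94). Together the pair held 59.1% of the CRIM1 reads in J82 (55.6% to 62.5%), 71.7% in T24 (67.4% to 75.7%) and 65.0% in SV-HUC-1 (60.6% to 69.2%).

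Folds were taken on log2 values after 0.0234 CPM, the worth of 1 T24 read, was added as a pseudocount, which makes the folds of sparsely covered circles too small. Circles entered a comparison from 10 reads in either library, and were counted from a 2-fold difference. A circRNA that passes this filter through 1 library alone tends to differ by that choice, so the counts describe these circRNAs and not all 18.

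In J82 against SV-HUC-1, 3 of 11 compared CRIM1 circRNAs were higher by 2-fold or more and 1 was lower by as much. Those higher were hsa_circ_0006294, hsa_circ_0006330 (past the filter through J82 alone) and hsa_circ_0005507, and the lower one was hsa_circ_0119881. The same held for 22.9% (higher) and 23.3% (lower) of all 3996 circRNAs in that comparison. The median log2 fold of the 11 was 0.81, against -0.01 over all circRNAs compared, and 10 of the 11 ratios lay above 1. These 11 circles come from 1 gene and share starts or ends, so their ratios are not separate observations. In T24 against SV-HUC-1, 0 of 10 were higher by this measure and 3 lower, beside 21.4% and 27.3% of all 3847 compared. The median log2 fold was 0.01, against -0.14 over all circRNAs compared, with 5 ratios above 1 and 5 below. The 3 lower were hsa_circ_0006294, hsa_circ_0119881 and hsa_circ_0008966, of which the interval left out 1 for hsa_circ_0119881 alone. Of these 3, hsa_circ_0119881 alone had at least 10 reads in both libraries, and the others passed the filter through SV-HUC-1. With a pseudocount of 5 reads none of these 3 stayed past 2-fold, nor did hsa_circ_0119881 in J82 against SV-HUC-1, and with a filter of 20 reads 1 of the 3 stayed. In J82 against T24, 4 of 11 were higher and 0 lower, beside 25.1% and 19.5% of all 3679 compared, and the median log2 fold was 0.82 (0.13 over all). The 4 were hsa_circ_0006294, hsa_circ_0006330, hsa_circ_0005507 and hsa_circ_0008966, of which all but hsa_circ_0005507 passed the filter through J82 alone. These comparisons share libraries, so their values are not independent of each other.

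**Figure D2:**
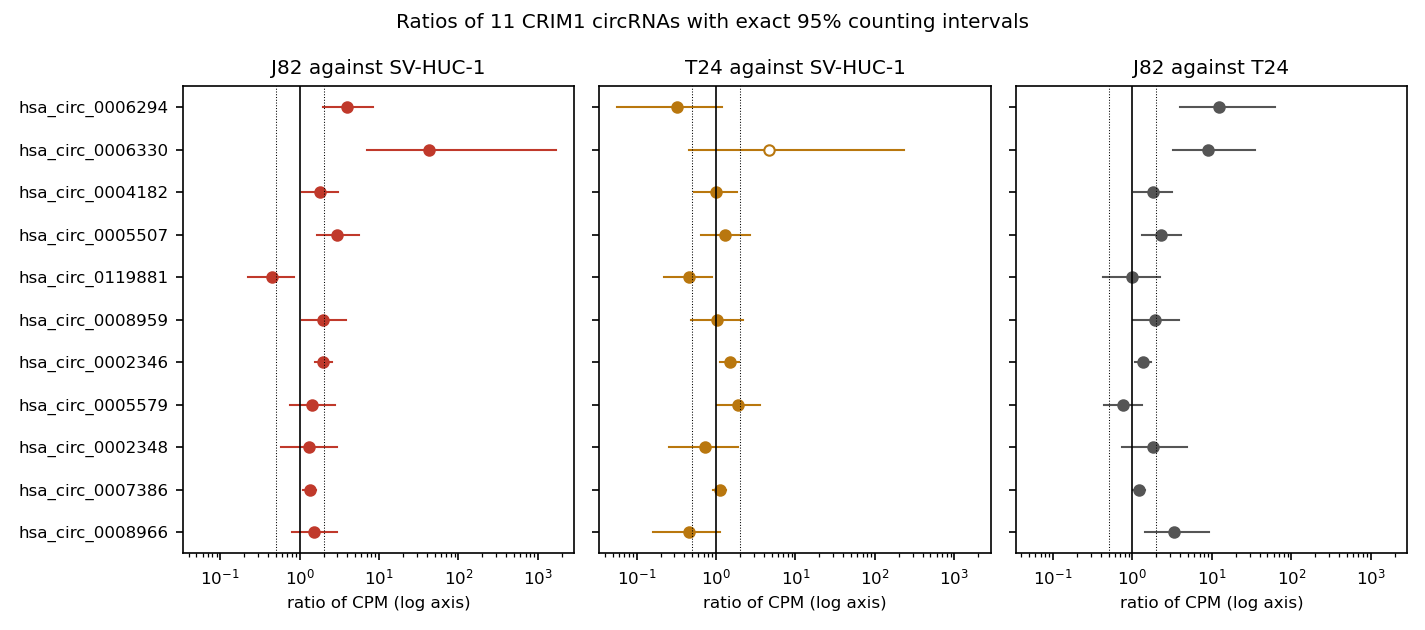
Ratio of CPM (log axis) for the 11 CRIM1 circRNAs that reached 10 reads in any line, with a panel each for J82 over SV-HUC-1, T24 over SV-HUC-1 and J82 over T24, and exact 95% counting intervals. Dotted lines mark 2-fold in either direction, and the open circle marks a circRNA with under 10 reads in both libraries. In J82 against SV-HUC-1 the points run from 0.447 for hsa_circ_0119881 to 42.1 for hsa_circ_0006330.

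The most upstream start, 36586046, gave the widest differences. Its shorter circle, hsa_circ_0006294 (to 36623930, 37.9 kb), had 41 reads in J82, 3 in T24 and 11 in SV-HUC-1, or 0.867, 0.0702 and 0.221 CPM. J82 stood above SV-HUC-1 at a ratio of 3.93 (1.98 to 8.47), whereas the ratio of T24 to SV-HUC-1 was 0.318 (0.0570 to 1.204), an interval that takes in 1. Its longer circle, hsa_circ_0006330 (to 36669878, 83.8 kb), had 40 reads in J82, 4 in T24 and 1 in SV-HUC-1, or 0.846, 0.0936 and 0.0201 CPM. The ratio of J82 to SV-HUC-1 was 42.1, with an interval from 7.14 to 1706 that reflects the single read in SV-HUC-1. J82 also exceeded T24 in both circles, with ratios of 12.3 (3.94 to 62.3) for hsa_circ_0006294 and 9.03 (3.27 to 34.8) for hsa_circ_0006330. Together the pair made up 10.1% of the CRIM1 reads in J82 (8.13% to 12.4%), 1.48% in T24 (0.597% to 3.03%) and 2.41% in SV-HUC-1 (1.25% to 4.18%). J82 therefore stood alone at this start, outside the intervals of both other lines.

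The next start, 36596250, served the same pair of ends. Its shorter circle, hsa_circ_0004182 (to 36623930, 27.7 kb), had 44 reads in J82, 22 in T24 and 26 in SV-HUC-1, or 0.930, 0.515 and 0.522 CPM. J82 was the higher line at 1.78-fold SV-HUC-1 (1.07 to 3.02), and T24 lay near SV-HUC-1 at a ratio of 0.987 (0.533 to 1.81). The longer, hsa_circ_0119879 (to 36669878, 73.6 kb), had 5 reads in J82, 5 in T24 and 2 in SV-HUC-1 and stayed under the 10 reads of the filter. It shares its end with hsa_circ_0006330 and starts 10.2 kb downstream of it, and its ratio of J82 to SV-HUC-1 was 2.63 with a wide interval (0.431 to 27.7).

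The start 36605499 gave 1 listed circle, hsa_circ_0005507 (to 36623930, 18.4 kb), with 48 reads in J82, 19 in T24 and 17 in SV-HUC-1, or 1.01, 0.445 and 0.341 CPM. J82 exceeded SV-HUC-1 by 2.97-fold (1.68 to 5.52) and T24 by 2.28-fold (1.32 to 4.11). In T24 its ratio to SV-HUC-1 was 1.30 (0.642 to 2.67).

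At the start 36615114 the order of the lines turned with the end that was used. The shorter circle, hsa_circ_0119881 (to 36623930, 8.82 kb), had 14 reads in J82, 13 in T24 and 33 in SV-HUC-1, or 0.296, 0.304 and 0.662 CPM. It was the 1 compared CRIM1 circRNA whose J82 level lay below that of SV-HUC-1, at a ratio of 0.447 (0.221 to 0.858), and T24 had a like ratio of 0.459 (0.222 to 0.896). The circle from the same start to 36669878, hsa_circ_0008959 (54.8 kb), had 32 reads in J82, 15 in T24 and 17 in SV-HUC-1, or 0.677, 0.351 and 0.341 CPM. Here J82 was the highest line, at a ratio of 1.98 (1.07 to 3.81) to SV-HUC-1, and T24 was level with SV-HUC-1 at 1.03 (0.479 to 2.19). The longest listed CRIM1 circle, the one without a circBase ID (to 36706837, 91.7 kb), had 1 read in J82, 0 in T24 and 5 in SV-HUC-1. Summed over its 3 circles this start had 47, 28 and 55 reads in J82, T24 and SV-HUC-1, so the J82 total was close to that of SV-HUC-1 (ratio 0.900, 0.597 to 1.35).

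Shares among circles that leave from 1 start do not depend on the scaling of the libraries. At 36615114 the far end 36669878 took 68.1% of the reads in J82 (52.9% to 80.9%), 53.6% in T24 (33.9% to 72.5%) and 30.9% in SV-HUC-1 (19.1% to 44.8%). The near end 36623930 took 29.8% in J82 (17.3% to 44.9%), 46.4% in T24 (27.5% to 66.1%) and 60.0% in SV-HUC-1 (45.9% to 73.0%). J82 and SV-HUC-1 thus used these ends in opposite proportion, with T24 between them and its interval overlapping both. At 36586046 the far end took 40 of 81 reads in J82 (49.4%, 38.1% to 60.7%), 4 of 7 in T24 (57.1%, 18.4% to 90.1%) and 1 of 12 in SV-HUC-1 (8.33%, 0.211% to 38.5%). At 36596250 the far end took 10.2% in J82 (3.40% to 22.2%), 18.5% in T24 (6.30% to 38.1%) and 7.14% in SV-HUC-1 (0.877% to 23.5%), so the near end prevailed in all 3 lines.

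**Figure D3:**
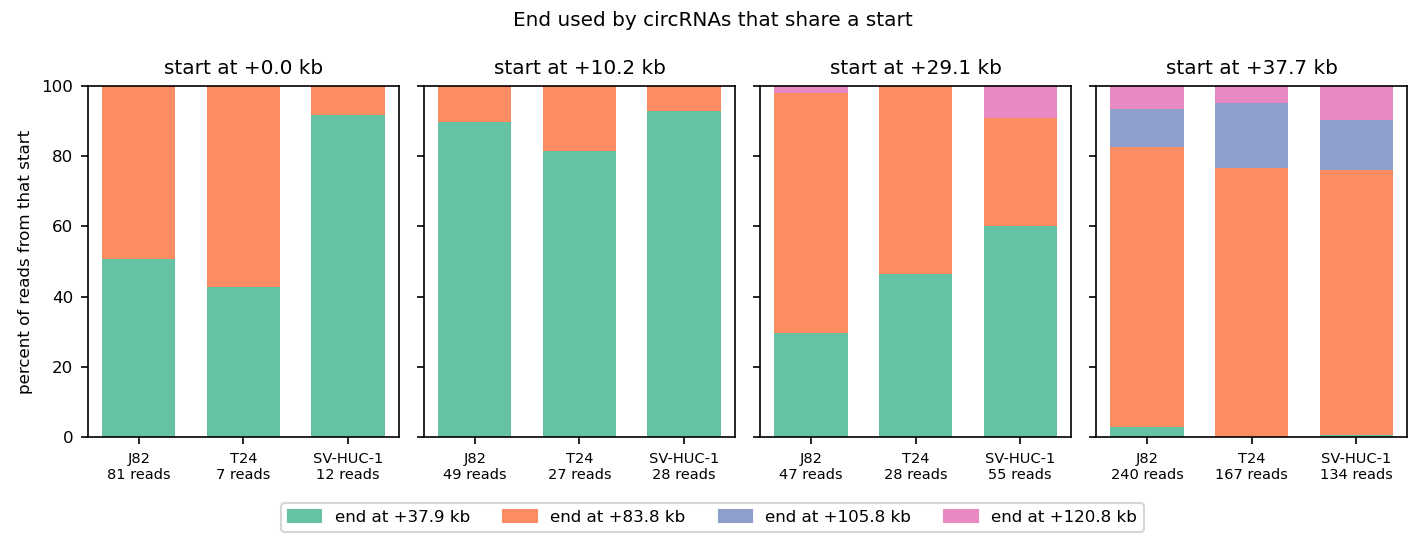
Percent of reads that each end took among circRNAs that leave from 1 start, in J82, T24 and SV-HUC-1, for 4 starts named by their distance from the most upstream one. The reads behind each bar are given under it, and with 7 reads the T24 bar of the first panel has a wide interval. In the third panel (start at 29.1 kb) the end at 83.8 kb takes 68.1% in J82, 53.6% in T24 and 30.9% in SV-HUC-1.

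The start 36623756, from which hsa_circ_0002346 leaves, was used by 4 circles. The shortest, hsa_circ_0002017 (to 36623930, 0.174 kb), had 7 reads in J82, 0 in T24 and 1 in SV-HUC-1. The circle hsa_circ_0005579 (to 36691798, 68.0 kb) had 26 reads in J82, 31 in T24 and 19 in SV-HUC-1, or 0.550, 0.726 and 0.381 CPM. Among the 10 CRIM1 circRNAs compared in T24 and SV-HUC-1 it had the highest ratio, 1.90 (1.04 to 3.57), and lay in J82 at 1.44 (0.768 to 2.76). The circle hsa_circ_0002348 (to 36706837, 83.1 kb) had 16 reads in J82, 8 in T24 and 13 in SV-HUC-1, with intervals that took in 1 in all 3 comparisons. The intervals of the lines overlapped for the main end of this start, 36669878, which took 79.6% of the reads in J82 (73.9% to 84.5%), 76.6% in T24 (69.5% to 82.8%) and 75.4% in SV-HUC-1 (67.2% to 82.4%).

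The start 36668400 of hsa_circ_0007386 also gave hsa_circ_0008966 (to 36691798, 23.4 kb), with 26 reads in J82, 7 in T24 and 18 in SV-HUC-1, or 0.550, 0.164 and 0.361 CPM. T24 was the low line, with a ratio of 0.454 (0.160 to 1.14) to SV-HUC-1, and J82 was 3.36-fold higher than T24 (1.42 to 9.16). This circle and hsa_circ_0005579 share the end 36691798, and their shares were most unequal in T24. There hsa_circ_0005579 held 31 of the 38 reads at that end (81.6%, 65.7% to 92.3%). It held 26 of 52 in J82 (50.0%, 35.8% to 64.2%) and 19 of 37 in SV-HUC-1 (51.4%, 34.4% to 68.1%). The T24 interval lay above that of J82 but overlapped that of SV-HUC-1.

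Downstream of these, 4 circles from 36691676 to 36764689 had under 10 reads in every line. The circles hsa_circ_0002729 and hsa_circ_0007741 both end at 36706837 and had 6 reads each in J82, 4 and 2 in T24, and 2 and 5 in SV-HUC-1. The circle hsa_circ_0002938 (36726361 to 36749456) had 9 reads in J82, 1 in T24 and 3 in SV-HUC-1, and hsa_circ_0006325 (36749234 to 36764689) had 6, 0 and 1. J82 had the most reads in each of these 4, but at this depth the intervals of all 4 ratios to SV-HUC-1 took in 1. In J82 against T24 the ratio of hsa_circ_0002938 was 8.13 (1.13 to 356), and the interval of hsa_circ_0006325 began at 1.06, with 0 reads in T24. For the 3 CRIM1 circles with 0 reads in T24, that count allows a level of up to 0.0702 CPM (3 reads).

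Summed by end, 36669878 closed 5 circles with 549 reads in J82, 363 in T24 and 343 in SV-HUC-1, or 68.7%, 76.7% and 69.0% of the CRIM1 reads. The end 36623930 closed another 5 with 154 reads in J82, 57 in T24 and 88 in SV-HUC-1, or 19.3% (16.6% to 22.2%), 12.1% (9.26% to 15.3%) and 17.7% (14.5% to 21.4%). At the end 36623930 the start 36586046 supplied 26.6% of the reads in J82 (19.8% to 34.3%), 5.26% in T24 (1.10% to 14.6%) and 12.5% in SV-HUC-1 (6.41% to 21.3%). Only the J82 and T24 intervals lay apart there. The start 36615114 supplied 9.09% in J82 (5.06% to 14.8%), 22.8% in T24 (12.7% to 35.8%) and 37.5% in SV-HUC-1 (27.4% to 48.5%), where only J82 and SV-HUC-1 lay apart. The start 36596250 supplied 28.6% in J82, 38.6% in T24 and 29.5% in SV-HUC-1, and 36605499 supplied 31.2%, 33.3% and 19.3%. At these and at the remaining start of this end, the intervals of all lines overlapped. Circles whose span contains the segment 36668400 to 36669878 numbered 9 of 18 and held 77.3% of the reads in J82 (74.3% to 80.2%), 86.5% in T24 (83.1% to 89.4%) and 80.1% in SV-HUC-1 (76.3% to 83.5%).

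**Figure D4:**
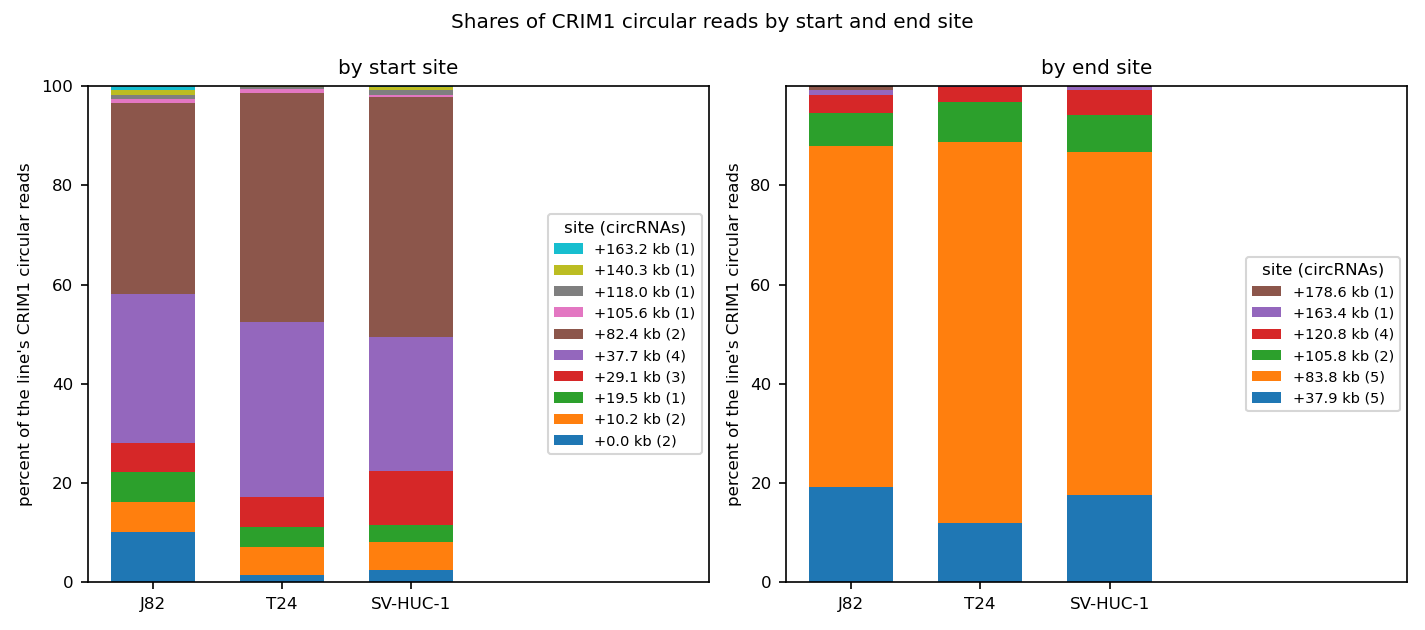
Percent of the CRIM1 circular reads of J82, T24 and SV-HUC-1 by the start (left) and the end (right) of the circRNA, with sites named by their distance from the most upstream start and the number of circRNAs at each in parentheses. The most upstream start, at the base of the left bars, holds 10.1% in J82, 1.48% in T24 and 2.41% in SV-HUC-1.

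Over all 18 circles, 17.1% of the CRIM1 reads would have to move to another circle for the makeup of J82 to equal that of SV-HUC-1 (total variation distance), 11.8% for T24 against SV-HUC-1 and 17.4% for J82 against T24. Without the pair from 36586046 the last of these was 11.3%. Counting error alone raises this measure above 0. The log2 folds of the compared CRIM1 circRNAs spread over 5.42 units in J82 against SV-HUC-1, 2.27 in T24 against SV-HUC-1 and 3.64 in J82 against T24. Over all host genes with at least 5 compared circRNAs, the median spread was 2.63 (101 host genes), 2.56 (77) and 2.32 (73). In J82 against SV-HUC-1, 1 of the 101 host genes had a wider spread than CRIM1, against 45 of 77 in T24 against SV-HUC-1 and 12 of 73 in J82 against T24. CRIM1 was chosen for such differences, so its place in this order restates the choice. The spread in J82 against SV-HUC-1 rests on hsa_circ_0006330 and its single SV-HUC-1 read, and without that circle it was 2.97. The measure also grows with the number of circRNAs. Among the 7 host genes with at least 11 compared in J82 against SV-HUC-1, CRIM1 included, the median was 4.14 and 0 were wider than CRIM1. Among the 6 with at least 10 in T24 against SV-HUC-1 the median was 3.73 and 5 were wider. Among the 6 with at least 11 in J82 against T24 the median was 3.66, near the value of CRIM1, and 3 were wider.

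Other genes of BMP and transforming growth factor beta (TGF-beta) signalling were followed by the summed reads of their circRNAs. Of 73 such genes, 24 had a listed circRNA. In J82 against SV-HUC-1, 3 of 18 compared were higher by 2-fold or more and 4 lower, beside 18.4% and 19.5% of all 2647 host genes compared, and the median log2 fold was -0.36 (-0.03 over all). In T24 against SV-HUC-1, 3 of 18 were higher and 3 lower, beside 18.7% and 22.1% of 2616 host genes, with a median of -0.43 (-0.04 over all). In J82 against T24, 3 of 16 were higher and 3 lower, beside 20.7% and 16.6% of 2513 host genes, with a median of 0.05 (0.01 over all).

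Among secreted members, BMPER, which like CRIM1 carries von Willebrand factor C repeats and binds BMPs, had 24 reads in J82 and 0 in both T24 and SV-HUC-1. Against a floor of 3 reads in SV-HUC-1, its J82 level was at least 8.43-fold higher. This leaves out the counting error of the 24 reads, and the exact 95% interval of the ratio begins at 6.34. TGFB1, the ligand TGF-beta 1, had 3 reads in J82, 17 in T24 and 8 in SV-HUC-1, and LTBP2, a matrix protein of the latent TGF-beta binding family, had 6, 41 and 21. Both were highest in T24, at 2.48-fold (1.01 to 6.64) and 2.28-fold (1.31 to 4.06) SV-HUC-1. The activin receptor ACVR2A had 162 reads in J82, 105 in T24 and 65 in SV-HUC-1, and its ratios to SV-HUC-1 were 2.63 (1.96 to 3.56) in J82 and 1.88 (1.37 to 2.61) in T24.

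Of the signal transducers, the shared SMAD4 had 24 reads in J82, 3 in T24 and 28 in SV-HUC-1, and SMAD2 of the TGF-beta branch had 141, 34 and 109. In T24 their ratios to SV-HUC-1 were 0.125 (0.0243 to 0.405) and 0.364 (0.240 to 0.539), whereas in J82 they were 0.903 (0.501 to 1.62) and 1.36 (1.05 to 1.77). SMAD5 of the BMP branch had 62 reads in J82, 37 in T24 and 89 in SV-HUC-1, with ratios of 0.734 (0.522 to 1.03) and 0.485 (0.321 to 0.719), and SMAD1 had 3, 5 and 10. SMURF2, a ubiquitin ligase of SMADs and receptors, had 68 reads in J82, 170 in T24 and 73 in SV-HUC-1, and its ratio of T24 to SV-HUC-1 was 2.72 (2.05 to 3.62). SKI, a corepressor of SMADs, had 19 reads in J82, 13 in T24 and 7 in SV-HUC-1. TAB2, an adaptor of the kinase TAK1, had 2, 6 and 10, and WWP2, a ubiquitin ligase, had 7, 12 and 24.

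Within 2 Mb of the CRIM1 circRNAs on chromosome 2, 11 other circRNAs were listed, all downstream of CRIM1, from 6 host genes and 2 circRNAs without an annotated host gene. They did not share one pattern. PRKD3, a protein kinase D, had 10 reads in J82, 18 in T24 and 61 in SV-HUC-1, and its ratios to SV-HUC-1 were 0.173 (0.0789 to 0.340) in J82 and 0.344 (0.191 to 0.590) in T24. STRN, which encodes striatin, had 13 reads in J82, 2 in T24 and 17 in SV-HUC-1, with ratios to SV-HUC-1 of 0.806 (0.360 to 1.76) in J82 and 0.137 (0.0154 to 0.578) in T24. HEATR5B, in 2 circRNAs, had 0 reads in J82, 5 in T24 and 6 in SV-HUC-1. FEZ2, the nearest host gene, had 9 reads in J82, 3 in T24 and 5 in SV-HUC-1. NDUFAF7 and ATL2 had under 10 reads in every line. One of the circRNAs without a host gene (37329065 to 37331275) had 34 reads in J82, 6 in T24 and 21 in SV-HUC-1.

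The host genes whose summed circRNA levels were most like those of CRIM1 were TNPO3, a nuclear import receptor, TRA2B, a splicing regulator, UBAC2, ETFA, a subunit of the electron transfer flavoprotein, and NUDC. Likeness was the Euclidean distance between log2 levels over the 3 lines, each gene centred on its own mean, among 892 other host genes with at least 100 reads in all. The distances ran from 0.00973 for TNPO3 to 0.0662 for NUDC. TNPO3 had 283 reads in J82, 167 in T24 and 177 in SV-HUC-1. Its J82 to SV-HUC-1 ratio was 1.68 (1.39 to 2.04), beside 1.69 for CRIM1. With 3 points per gene, close matches arise readily among so many genes.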

How the data were processed

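Per the labels' protocols, 2 μg of total RNA per line went through removal of ribosomal RNA, RNase R digestion, fragmentation and directional cDNA synthesis. The authors deposited CPM values per circRNA, named as normalized with TMM (a trimmed mean of log ratios), for 1 library per line. Per the submitters' processing notes, positions are on hg19, and the tools named are edgeR, STAR, RSEM 1.2.15 and Bowtie2 2.1.0, without their roles. The back-splice caller, and whether starts count from 0 or 1, are not given in the sources used here. RNase R yield can differ between circles and libraries and was not measured.

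Every value was a whole multiple of its column's smallest value above 0 (100% within 0.01 reads), so whole reads were recovered. The SV-HUC-1 column spells that name with a different letter. Ratios carry exact Clopper-Pearson intervals (scipy 1.17.1). edgeR 4.0.16 was run on the recovered reads as an alternative across all circRNAs. Host totals leave out 257 circRNAs without an annotated host gene.

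The gene, its circRNAs and the lists were chosen with earlier results of these data known. All CRIM1 circRNAs are named. So are listed BMP and TGF-beta genes past 2-fold in any comparison, up to 12, host genes within 2 Mb of CRIM1 with at least 10 reads, and the 5 host genes nearest in pattern. FEZ2, HEATR5B, NDUFAF7, ATL2 and the marker genes were named after their values were seen. Alternatives were other pseudocounts, read filters, scalings, a 4-fold threshold and sums without leading circles.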

Additional observations from a re-analysis of the deposited data

Results flagged for a closer look

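The circRNA hsa_circ_0006294 lay past 2-fold in opposite directions in the cancer lines, with a log2 fold of 1.87 in J82 against SV-HUC-1 and -1.38 in T24 against SV-HUC-1. The reads were 41 in J82, 3 in T24 and 11 in SV-HUC-1. The difference between these folds was not tested, both share the SV-HUC-1 library, and the counting interval of the T24 ratio takes in 1. With a pseudocount of 5 reads the T24 log2 fold was -0.85, inside 2-fold, and with a filter of 20 reads T24 and SV-HUC-1 were not compared for this circle.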

How the results depend on the processing

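The scalings to all listed circRNA reads and by median of ratios left every count of CRIM1 circRNAs past 2-fold as reported. Of 128 alternative log2 folds of single CRIM1 circRNAs, 127 stayed within the counting interval and 0 reversed. These intervals are wide, so a fold could stay within its interval and still lose its place past 2-fold. That of hsa_circ_0119881 in J82 against SV-HUC-1 did so, at -0.92 with a pseudocount of 5 reads against -1.10. The 1 fold that left its interval was that of hsa_circ_0006330 in J82 against SV-HUC-1, at 2.81 with a pseudocount of 5 reads against 4.32. That pseudocount left 0 circRNAs lower in both J82 and T24 against SV-HUC-1. Without the read filter, 8 were higher and 2 lower in J82 against SV-HUC-1, 2 higher and 4 lower in T24 against SV-HUC-1, and 8 higher in J82 against T24. With a filter of 20 reads, 1 was lower in T24 against SV-HUC-1. At 4-fold, 1 was higher and 0 lower in J82 against SV-HUC-1, 0 lower in T24 against SV-HUC-1, and 2 higher in J82 against T24. The counts at other pseudocounts, filters and thresholds have no share over all circRNAs beside them, so they do not set CRIM1 apart from other genes. Without hsa_circ_0007386, the ratio of the summed CPM was 1.98 in J82 against SV-HUC-1 and 1.79 in J82 against T24. Without the pair from 36586046, an alternative chosen after seeing the data, it was 1.56 and 1.39, and the share of reads placed differently was 13.4% and 11.3%. Without hsa_circ_0006330, likewise chosen after seeing the data, the spread of the CRIM1 log2 folds in J82 against SV-HUC-1 was 2.97. edgeR's quasi-likelihood test set J82 and T24 together against SV-HUC-1, with 1 residual degree of freedom. It took J82 and T24 as replicates of 1 group, so the difference between these lines stood in for replicate spread. The lone SV-HUC-1 library was assumed to vary like the others. Its calls are therefore not given, and it does not bear on how the CRIM1 values depend on the processing. No paired analysis was possible because each line has 1 library. Depth limits the 7 CRIM1 circRNAs with under 10 reads in every line, whose ratios have wide intervals.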
